A study of Oryza sativa with 10 samples.

Results

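Vacuolar processing enzymes (VPEs) are cysteine proteases of the legumain family that cut proteins after asparagine. They work in the vacuole, where they mature stored proteins and, in several plants, carry the caspase-like activity that goes with the collapse of dying cells. In barley, VPE genes are known from the nucellus and pericarp, maternal tissues that break down as the endosperm fills. The rice genes described here are VPE1 (LOC_Os04g45470, chromosome 4), VPE2 (LOC_Os01g37910, chromosome 1), VPE3 (LOC_Os02g43010, chromosome 2) and VPE4 (LOC_Os05g51570, chromosome 5). These 4 genes were taken by locus identifier from 55801 counted features, and all 4 were among the 25354 genes that passed the filter on low counts. VPE1, also called Glup3, cuts proglutelin into the subunits of the main rice storage protein. VPE3 has been linked to cell death under salt stress in rice.

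The study sequenced RNA from husk-free rice seeds at 48 and 72 hours after fertilization (HAF), and asked what the type I MADS-box genes MADS78 and MADS79 do in early seeds. The genotypes were a MADS78 overexpression line (OE78-8, here OE78), a MADS79 overexpression line (OE79-3, here OE79), a line whose MADS78 gene was targeted with CRISPR (CR78, labelled Cr78_8.22.2), another targeted at MADS79 (CR79, labelled Cr79_11.25.3) and wild type (WT). With 1 library per genotype and time there were 10 libraries. Each manipulation is thus represented by 1 line, and values within a time are unreplicated. The labels do not say whether seeds of several plants were pooled. The labels used here do not give the promoter of the overexpression constructs.

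Library totals ran from 12267337 to 18040600 counts, and the top 50 genes held 15.1% of the reads in CR79 at 72 HAF, against 6.8% to 9.28% elsewhere. MADS78 stood at 138 CPM (reads scaled to a common library size by TMM) in OE78 at 72 HAF and at 0.349 CPM or less in the other 9 libraries, OE78 at 48 HAF included. MADS79 had 0.466 and 2.27 CPM in the libraries labelled OE79 at 72 and 48 HAF, against 1.11 and 1.94 CPM in WT. Its reads there were thus lower than in WT at 72 HAF (7 against 20) and not clearly raised at 48 HAF (39 against 33). Read counts do not check the CRISPR labels, since an edited gene can still be transcribed. The library of CR78 at 48 HAF stood apart for the heat shock gene HSP101, at 143 CPM against 9.69 to 18.4 CPM in the others.

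VPE1, VPE2 and VPE4 rose between 48 and 72 HAF, and VPE3 did not pass the test. VPE4 had the largest fitted change, 2.01-fold, while VPE1 and VPE2 rose 1.37-fold and 1.39-fold. Of the 4 genes, 3 were thus called higher and 0 lower, where 15.2% of all tested genes were called higher, 12.9% lower and 28.1% in either direction. The test was the quasi-likelihood test of edgeR for 1 time effect in an additive fit of genotype and time, and a call is a Benjamini-Hochberg adjusted p, taken over all 25354 genes, under 0.05. In that fit the 5 genotypes stand in for replicates of a time, so the p-values measure the spread between these libraries only. The median log2 fold change of the 4 genes was 0.47, against -0.02 over all genes tested.

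**Figure D1:**
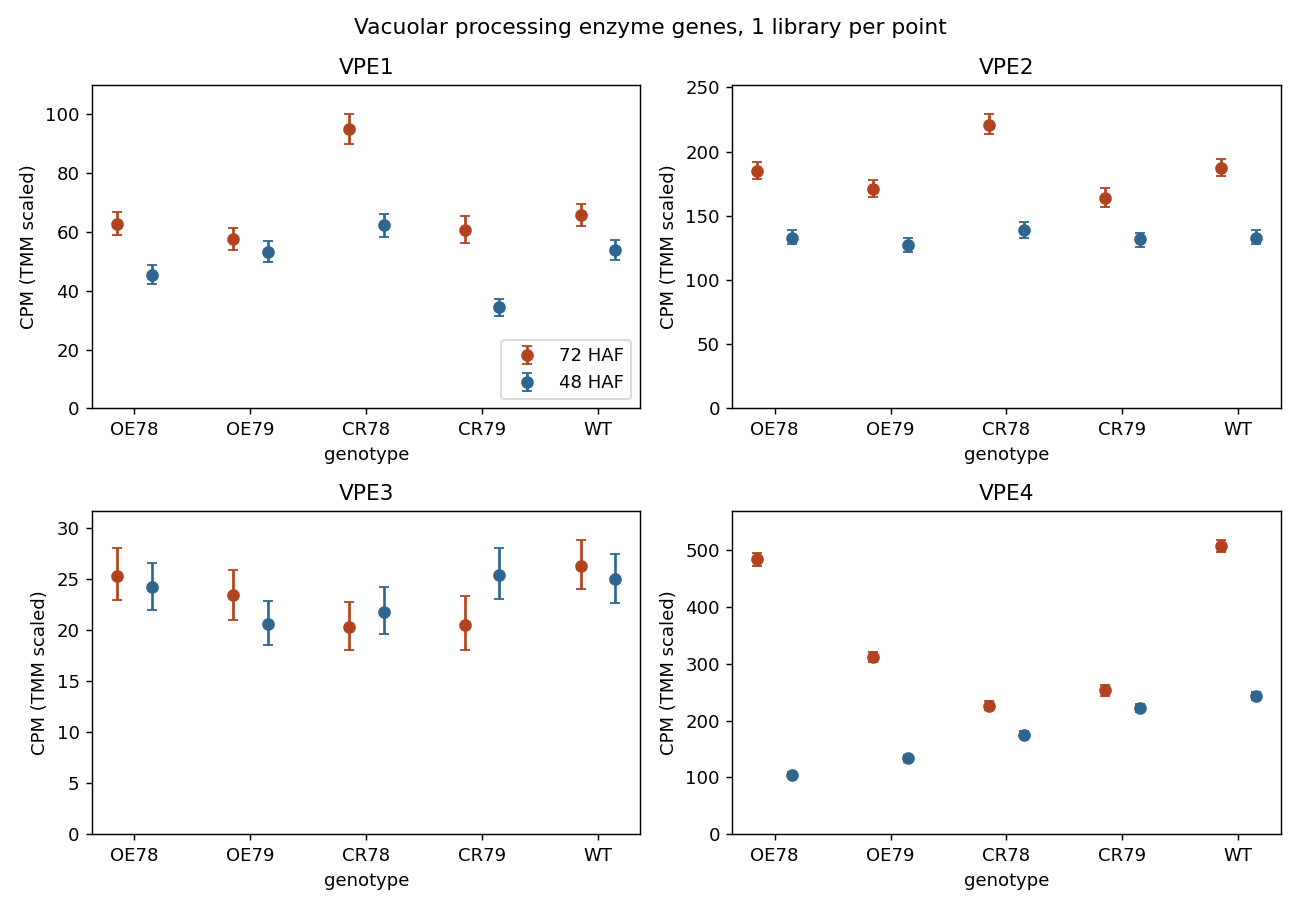
Level of each VPE gene (CPM, linear axis from 0) in the 72 HAF (red) and 48 HAF (blue) library of each genotype. Each point is 1 library and bars are exact 95% Poisson intervals, which cover counting error only. VPE2 at 72 HAF lies above every 48 HAF library, and VPE4 at 72 HAF spans 226 to 508 CPM.

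VPE1, the proglutelin-cutting enzyme, had 62.6, 57.5, 94.7, 60.6 and 65.5 CPM at 72 HAF in OE78, OE79, CR78, CR79 and WT. At 48 HAF the same genotypes had 45.3, 53.2, 62.1, 34.3 and 53.7 CPM. CR78 was highest at both times and CR79 lowest at 48 HAF, and the 2 times overlap because CR78 at 48 HAF lies above OE79 and CR79 at 72 HAF. The level was higher at 72 HAF within each genotype, by ratios of 1.08 in OE79 to 1.77 in CR79, and 19.3% of tested genes were higher at 72 HAF in all 5 genotypes. The log2 fold change over the genotypes was 0.46 (SE 0.111, edgeR adjusted p = 0.0167). It missed the threshold without either CR78 library, at edgeR adjusted p = 0.0634 without the 48 HAF one and 0.0648 without the 72 HAF one. The log2 fold change was 0.42 in both refits, and 4388 and 4397 of all genes were called, against 7114 with all libraries. The VPE1 change also missed the threshold with the genotype term left out (edgeR adjusted p = 0.074, where 24.7% of genes were called).

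The 8 glutelin genes listed, whose proteins VPE1 cuts, summed to 49.1 CPM in CR78 and 159 CPM in CR79 at 72 HAF, and to between 3.39 and 5.28 CPM in the other 8 libraries. VPE1 at 72 HAF stood at 94.7 CPM in CR78 but at 60.6 CPM in CR79, below WT at 65.5 CPM. VPE1 had 34.3 CPM or more in every library, also in the 48 HAF libraries, in which 5 to 7 of the 8 glutelin genes had no read.

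VPE2 had the tightest change with time. It had 185, 171, 221, 164 and 187 CPM at 72 HAF in OE78, OE79, CR78, CR79 and WT, and 133, 127, 139, 132 and 133 CPM at 48 HAF. The times do not overlap, which was so in the upward direction for 10.6% of tested genes. Its mean was 186 ± 21.9 CPM at 72 HAF and 133 ± 4.19 CPM at 48 HAF (SD over the 5 genotypes), so the genotypes lay closer together at the earlier time. The log2 fold change was 0.48 (SE 0.082, edgeR adjusted p = 0.00388), and the adjusted p stayed between 0.00663 and 0.0196 when each library was left out in turn. CR78 was highest and CR79 lowest at 72 HAF, with CR78 18% above WT and WT 1.1% above OE78.

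VPE3, the member linked to salt stress, was the steadiest. It had 25.3, 23.4, 20.3, 20.5 and 26.3 CPM at 72 HAF in OE78, OE79, CR78, CR79 and WT, and 24.2, 20.6, 21.8, 25.4 and 25 CPM at 48 HAF. All 10 values lay between 20.3 and 26.3 CPM, and the 2 times overlap. The log2 fold change was -0.02 (SE 0.101, edgeR adjusted p = 0.92). The ratio of 72 to 48 HAF was 1.05 and 1.13 in OE78 and OE79, 0.928 and 0.807 in CR78 and CR79 and 1.06 in WT, and the counting interval excluded 1 in CR79 alone, at 0.684 to 0.95. VPE3 is the least counted member, with 232 to 474 reads a library.

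VPE4 differed most between genotypes. It had 484, 312, 226, 254 and 508 CPM at 72 HAF in OE78, OE79, CR78, CR79 and WT. At 48 HAF the same genotypes had 104, 134, 175, 222 and 243 CPM. WT was highest at both times. The CRISPR lines were lowest at 72 HAF, whereas the overexpression lines were lowest at 48 HAF. Both overexpression lines lay above both CRISPR lines at 72 HAF for 23.7% of tested genes, and below both at 48 HAF for 18.5%. The times overlap, since WT at 48 HAF lies above CR78 at 72 HAF. The log2 fold change with time was 1.005 (SE 0.265, edgeR adjusted p = 0.0238), above 92.6% of tested genes. The call did not hold without an OE79 library (edgeR adjusted p = 0.0644 without that of 72 HAF and 0.065 without that of 48 HAF) or a WT library (0.0809 and 0.0702). Over all genes 5835 and 5833 were then called without an OE79 library and 5212 and 5271 without a WT library, against 7114 with all libraries. Without either OE78 library the fitted value was 0.71, still past the threshold.

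Without both the CR78 and OE78 libraries of 48 HAF, chosen after seeing the data, none of the 4 genes passed in edgeR, while 9.42% of all genes were still called. The log2 fold changes were then 0.40 for VPE1 (adjusted p = 0.164), 0.41 for VPE2 (0.0777) and 0.82 for VPE4 (0.0706).

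**Figure D2:**
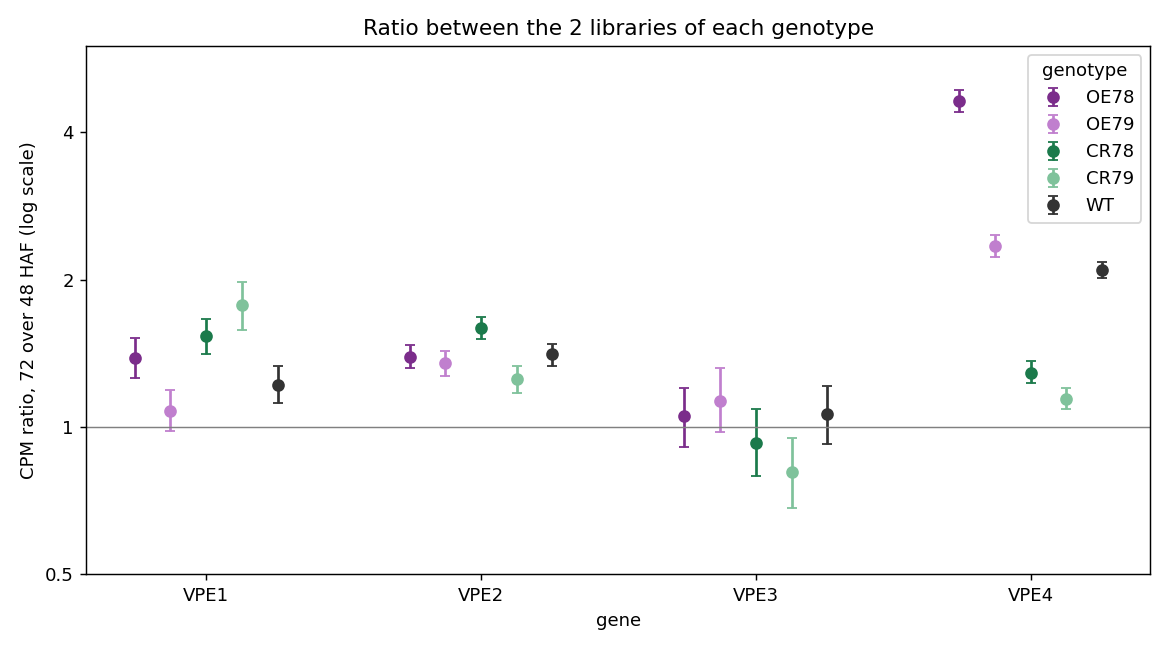
Ratio of CPM at 72 HAF over 48 HAF (log axis, line at 1) for each VPE gene in each genotype. Points compare 1 library with 1 library and bars are 95% intervals for counting error. VPE4 ranges from 1.14 in CR79 to 4.63 in OE78, and VPE3 stays between 0.807 and 1.13.

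The time ratio of VPE4 was larger in both overexpression lines than in both CRISPR lines. It was 4.63 in OE78 (95% counting interval 4.4 to 4.88) and 2.34 in OE79 (2.22 to 2.46), against 1.29 in CR78 (1.23 to 1.36) and 1.14 in CR79 (1.09 to 1.2), and WT stood at 2.09. Across all tested genes, 22% had both overexpression lines above both CRISPR lines in this way. The difference in change over time was 1.47 on the log2 scale (SE 0.329), in a fit where the 2 lines of a class are its replicates. It did not pass over all genes (edgeR adjusted p = 0.152, unadjusted p = 0.00169), in a test that called 0.0118% of genes. With the line as a replicate block the difference was 1.44 and passed (edgeR adjusted p = 0.0172), where 4.02% of genes were called. DESeq2 gave 1.48 (adjusted p = 0.000607), where 2.53% were called. Without a filter on low counts edgeR gave adjusted p = 6.13e-05, where 2.49% were called. Leaving out each library in turn gave 1.12 to 1.75. Where the library left out is of an overexpression or CRISPR line, only the other line of its class remains at that time. These refits thus give the size of the difference and say little on whether it passes. The call for VPE4 thus rests on the fit chosen, and its direction was the same in the fits given here.

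The opposite placing of the 2 line classes at the 2 times makes up this difference. At 72 HAF VPE4 averaged 398 ± 122 CPM in the overexpression lines and 240 ± 19.4 CPM in the CRISPR lines (SD, n = 2 lines each), which the class fit put at 0.73 on the log2 scale (SE 0.232, adjusted p = 0.168 in edgeR). DESeq2 called it (adjusted p = 0.0306), as did edgeR without the filter (adjusted p = 0.00564), where 5.05% and 5.11% of genes were called, against 0.951% in the filtered test. At 48 HAF the means were 119 ± 20.6 CPM in the overexpression lines and 199 ± 33.4 CPM in the CRISPR lines. That log2 fold change was -0.74 (SE 0.233, edgeR adjusted p = 0.677), and only the fit without the filter called it (adjusted p = 0.028, 1.07% of genes called, against 0.00394% with the filter). Over both times together the class difference was near 0 (log2 fold change -0.00112, SE 0.281, adjusted p = 0.999 in edgeR). Only the 72 HAF library of OE78 had raised MADS78 reads. Without that library the 72 HAF difference was 0.38, in a fit that leaves OE79 alone in its class at 72 HAF. Whether MADS78 reads bear on the VPE4 difference was not tested.

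For VPE1, VPE2 and VPE3 none of these class comparisons passed in edgeR or DESeq2, and none had an unadjusted p under 0.05. Their differences in change over time were -0.41 (SE 0.406), -0.06 (SE 0.227) and 0.33 (SE 0.235) on the log2 scale, with edgeR adjusted p of 0.818, 0.97 and 0.719. Over both times 0.572% of genes were called between the classes, and none of the 4 members was.

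No VPE gene was called in any line against WT over both times, in edgeR or DESeq2, and none had an unadjusted p under 0.05 in edgeR. Of all genes, edgeR called 0.142% for OE78 and 0.154% for OE79, and 0.0749% for CR78 and 2.19% for CR79. DESeq2 called 0.527% for OE78 and 0.426% for OE79, and 0.382% for CR78 and 4.86% for CR79. These comparisons share the 2 WT libraries, and the 2 times of a line stand in for its replicates. Both VPE4 values of the overexpression lines were negative on the log2 scale, -0.52 for OE78 (SE 0.407, edgeR adjusted p = 0.998) and -0.78 for OE79 (SE 0.406, edgeR adjusted p = 1). So were those of the CRISPR lines, -0.79 for CR78 (SE 0.407, edgeR adjusted p = 0.915) and -0.51 for CR79 (SE 0.406, edgeR adjusted p = 0.492). It was below the WT library of its time in all 8 libraries of the lines, by ratios of 0.429 in OE78 at 48 HAF to 0.953 in OE78 at 72 HAF. Of all tested genes 3.24% were below WT in all 8, and these 8 ratios share 2 WT libraries. The fitted values rest on single libraries of the lines. Without the 72 HAF library of the line VPE4 was at -1.41 in OE78, and without the 48 HAF one at 0.09. In CR78 it was at -0.42 without the 72 HAF library and -1.22 without the 48 HAF one, and in CR79 at -0.02 and -1.08.

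VPE1 leaned in opposite directions in the 2 CRISPR lines. Its log2 fold change was 0.37 in CR78 (SE 0.174, edgeR adjusted p = 0.915, unadjusted p = 0.0635) and -0.37 in CR79 (SE 0.175, edgeR adjusted p = 0.258, unadjusted p = 0.0649). The CR79 difference lay mostly at 48 HAF, where its ratio to WT was 0.638, against 0.925 at 72 HAF. In CR78 the ratios to WT were 1.16 at 48 HAF and 1.45 at 72 HAF. VPE2 lay within ratios of 0.877 and 1.18 to WT in all 8 libraries of the lines, and VPE3 within 0.769 and 1.02.

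**Figure D3:**
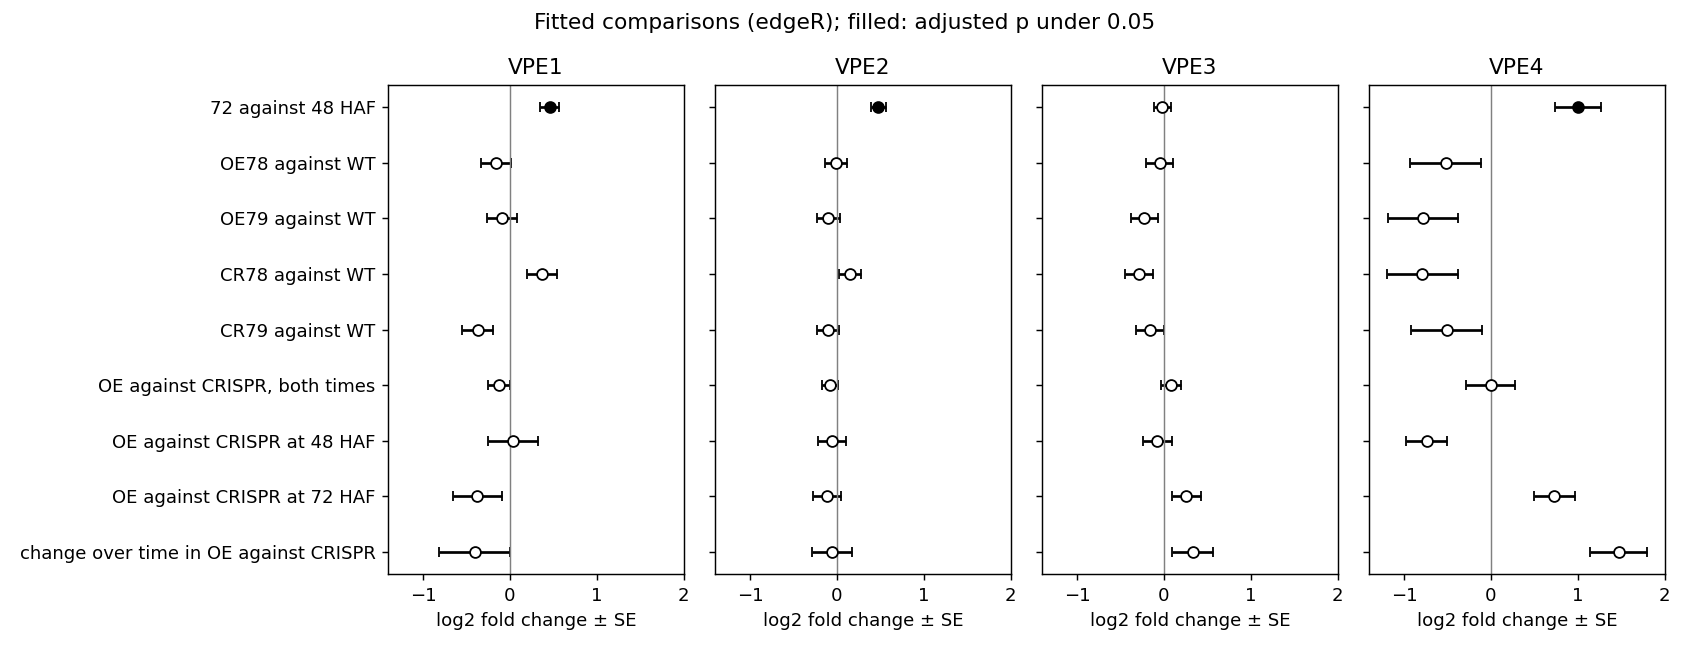
Fitted log2 fold change with its standard error for each VPE gene in the 9 comparisons, with the group named first on top of the ratio. Filled points have an edgeR adjusted p under 0.05. VPE1, VPE2 and VPE4 pass for 72 against 48 HAF, and no other point passes.

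Genes that act around the VPEs were described from lists. Among 8 glutelin genes, whose proteins VPE1 matures, 6 were tested and 4 were called higher with time in edgeR, where 15.2% of all genes were. These 4 had 0.0581 CPM or less in every 48 HAF library and passed the filter on low counts only through 72 HAF libraries. The direction of these calls was thus fixed in advance. GluB2 (LOC_Os02g15150) had 15.4 CPM in CR78, 38.6 CPM in CR79 and 0 to 0.522 CPM in the others at 72 HAF, and was at 0 in all 48 HAF libraries (edgeR adjusted p = 0.00085). LOC_Os02g15178, the glutelin gene with the smallest p, had 24.6 CPM in CR78, 91.3 CPM in CR79 and 0.261 to 0.931 CPM in the others at 72 HAF, against 0 to 0.0581 CPM at 48 HAF (edgeR adjusted p = 4.87e-05). GluB4 (LOC_Os02g16830) had 8.4 CPM in CR79, 0.881 CPM in CR78, 0.588 CPM in OE78, 0.2 CPM in OE79 and 0 in WT at 72 HAF. It was at 0 in all 48 HAF libraries (edgeR adjusted p = 0.00798). GluD1 (LOC_Os02g15090) had 1.83 CPM in CR78, 1.15 CPM in CR79, 0.131 CPM in OE78 and 0 in OE79 and WT at 72 HAF. It was likewise at 0 at 48 HAF (edgeR adjusted p = 0.0244). In CR79 against WT over both times, 2 of the 6 tested glutelin genes were called higher, where 1.46% of all genes were. GluB2, among them, had no read in WT at either time, so it could only be called higher. Of 5 genes for the folding and transport of storage protein, 1 rose and 0 fell, with a median log2 fold change of 0.11, where 15.2% of all genes were called higher. That gene was PDIL1-1 (LOC_Os11g09280), a disulfide isomerase of the endoplasmic reticulum (log2 fold change 0.47, SE 0.129, edgeR adjusted p = 0.0276). It had 1090 to 1760 CPM at 72 HAF and 843 to 1070 CPM at 48 HAF, and the times do not overlap, as for 10.6% of all genes in this direction.

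Among 10 other protease and cell death genes, 9 were tested, 2 rose, 1 fell and 6 did not pass, with a median log2 fold change of 0.10. These counts are to be read against the 15.2% of all genes called higher and the 12.9% called lower. DAD1 (LOC_Os04g32550), named as a defender against cell death, rose by 0.25 (SE 0.075, edgeR adjusted p = 0.0385). It had 82.2 to 107 CPM at 72 HAF and 73 to 82.2 CPM at 48 HAF. LOC_Os04g55650 rose by 0.49 (SE 0.0965, edgeR adjusted p = 0.00709), with 219 to 285 CPM at 72 HAF and 125 to 201 CPM at 48 HAF. LOC_Os09g27030 had a log2 fold change of -0.31 (SE 0.0982, adjusted p = 0.0469 in edgeR), with 114 to 154 CPM at 72 HAF and 146 to 198 CPM at 48 HAF, and its times overlap.

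Markers of some seed tissues also rose with time, and those of others did not. The counts of markers called with time are to be read against the 15.2% of all tested genes called higher and the 12.9% called lower. All 4 endosperm markers rose with time, and their summed level was 89.4 to 794 CPM at 72 HAF and 1.23 to 16.6 CPM at 48 HAF. At 72 HAF the sum was 89.4 and 103 CPM in OE78 and OE79, 794 and 643 CPM in CR78 and CR79 and 141 CPM in WT, so the CRISPR lines, which had the lowest VPE4, had the highest endosperm sums. Wx made up most of the sum at 72 HAF in CR78 (652 CPM) and in WT (115 CPM). The other markers did not all follow it, since LOC_Os02g15350 had 33.2 CPM in OE78 and 18.5 CPM in WT, and LOC_Os07g08420 had 16.1 CPM in OE78 and 2.56 CPM in WT. Of these markers NF-YB1 (LOC_Os02g49410) had no read in 4 of the 48 HAF libraries, and Wx (LOC_Os06g04200) had none in 3. Both passed the filter on low counts only through 72 HAF libraries, so their direction with time was fixed in advance. Both pericarp markers, the chlorophyll-binding protein genes Cab2R (LOC_Os01g41710, log2 fold change 1.22) and Cab1R (LOC_Os09g17740, 0.60), rose, with sums of 4160 to 5550 CPM at 72 HAF and 2040 to 3520 CPM at 48 HAF. None of 3 ovule and nucellus markers passed in edgeR, and none was at 0. At 72 HAF they summed to 1100 and 959 CPM in OE78 and OE79, 823 and 785 CPM in CR78 and CR79 and 836 CPM in WT. At 48 HAF they summed to 860 and 935 CPM in OE78 and OE79, 1010 and 947 CPM in CR78 and CR79 and 956 CPM in WT. In these sums the overexpression lines thus lay above the CRISPR lines at 72 HAF and below them at 48 HAF, there as close as 935 and 947 CPM. VPE4 had the same placing of the classes, but WT went another way. The WT sum fell from 956 to 836 CPM, while VPE4 in WT rose from 243 to 508 CPM. Of all tested genes 23.7% had the placing seen at 72 HAF and 18.5% that at 48 HAF. No single marker had both placings. MADS13 and MADS21 lay above at 72 HAF but overlapped at 48 HAF (426 to 466 against 451 to 473 CPM, and 320 to 353 against 337 to 430 CPM). MADS29 (LOC_Os02g07430) lay below at 48 HAF but overlapped at 72 HAF (125 to 157 against 133 to 153 CPM). None of the 3 markers passed a test between the classes. The most abundant, MADS13 (LOC_Os12g10540) and MADS21 (LOC_Os01g66290), had log2 fold changes of -0.33 (edgeR adjusted p = 0.0643) and 0.13 (edgeR adjusted p = 0.526). Of 2 embryo markers 1 rose and 1 fell, the one that fell being the meristem homeobox gene OSH1 (LOC_Os03g51690), at -1.63 on the log2 scale. The one that rose, LOC_Os02g49370, had 0.349 CPM or less in every 48 HAF library. It passed the filter on low counts only through 72 HAF libraries, so its direction was fixed in advance. OSH1 had 6.53 and 13 CPM in OE78 and OE79 at 72 HAF, against 2.24 and 1.59 CPM in CR78 and CR79, which did not pass (log2 fold change 2.33, SE 0.505, adjusted p = 0.0734 in edgeR). The 3 anther markers summed to 3.39 to 6.07 CPM, with 0 of the 2 tested past the threshold. In whole seeds, a change in the share of cells of a type and a change in RNA per cell cannot be told apart. The part of tissue makeup in the VPE results was not tested.

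**Figure D4:**
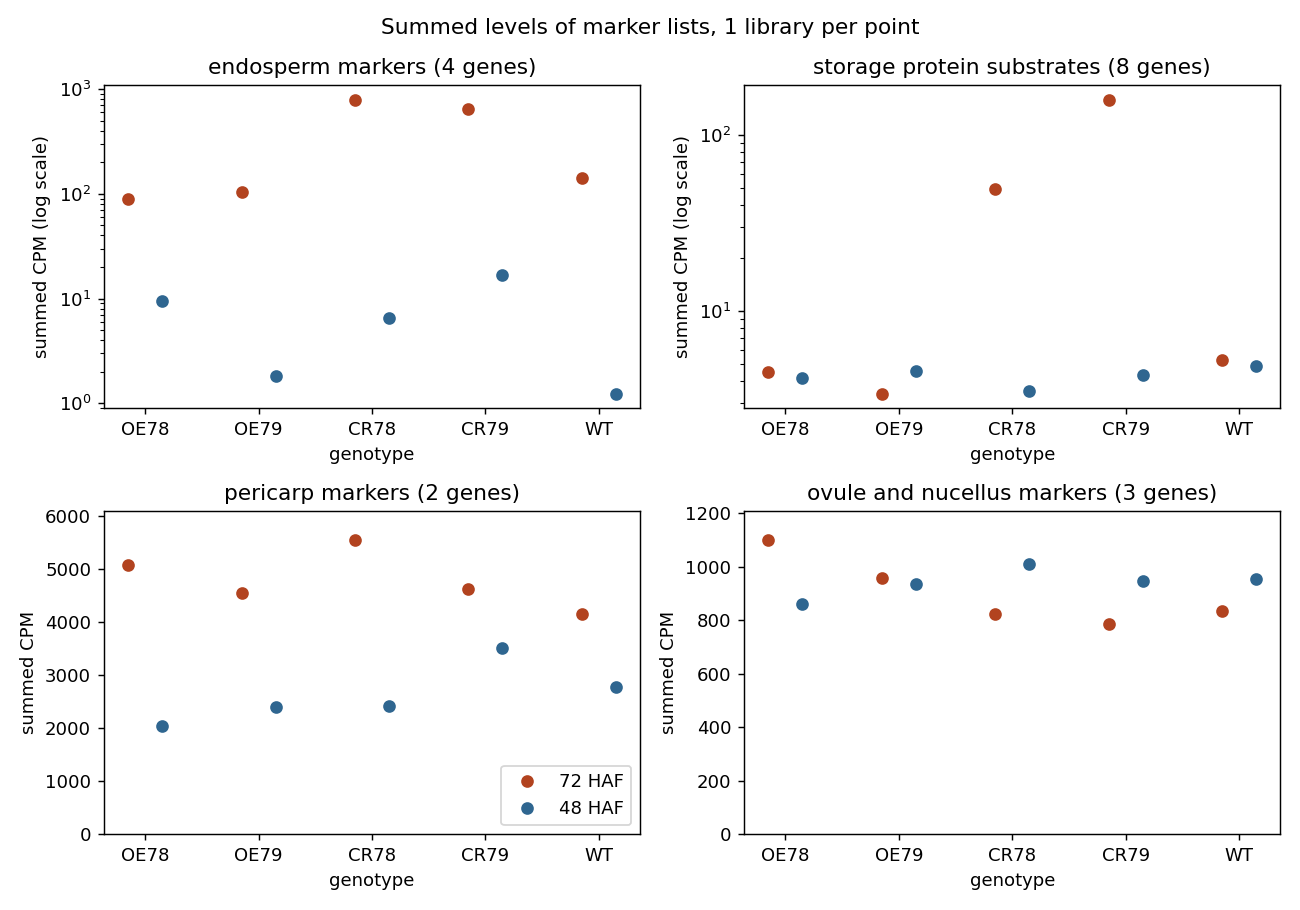
Summed CPM of 4 gene lists in the 72 HAF (red) and 48 HAF (blue) library of each genotype, with a log axis in the upper panels and a linear axis from 0 in the lower ones. At 72 HAF the endosperm sum is 794 and 643 CPM in CR78 and CR79, against 89.4 to 141 CPM in the other genotypes.

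The genes most like each VPE across the 10 libraries were found by Pearson correlation of log2(CPM + 1) among 17453 genes with a mean of at least 5 CPM. These correlations are descriptions, since the libraries share their times and lines. VPE4 was most like LOC_Os03g02180 (r = 0.965), which had 57.4 to 137 CPM at 72 HAF and 26.7 to 53.4 CPM at 48 HAF, and 10 genes had r over 0.9 with it. VPE2 was most like LOC_Os04g56700 (r = 0.981), which had 6.39 to 27 CPM at 72 HAF and 0.763 to 1.1 CPM at 48 HAF. The likeness is not one of size, since its log2 fold change with time was 3.36, against 0.48 for VPE2. For VPE2, 471 genes had r over 0.9. VPE1 was most like LOC_Os01g01790 (r = 0.967), with 82 such genes, and VPE3 was most like LOC_Os05g06300 (r = 0.928), with 2. The files do not pair these identifiers with names.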

How the data were processed

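The deposited values are counts, whole reads per LOC_Os feature for each library. Per the submitters' processing notes the tools were TopHat2 and HTSeq, without versions. Per the labels' protocols RNA came from an RNeasy Plant mini kit. For genome build, annotation, read filters and strandedness, the answer is not given in the sources used here, so reads of paralogs or overlapping genes may be misassigned. Genes were filtered with edgeR at a minimum count of 10, leaving 25354. CPM are counts over the TMM-scaled total of these genes. Tests used edgeR 4.0.16 (R 4.3.3), with DESeq2 1.42.0 and limma 3.58.1 for alternatives; the edgeR tests for time, for CR79 against WT and for the change over time between classes were also run on simulated data, and the other comparisons were not. Alternatives were RLE scaling, DESeq2, no filter, each library left out in turn, the genotype term left out for time, the line as a block for the class comparisons (edgeR for the change over time, limma within a time) and, chosen after seeing the data, leaving out 2 of the 48 HAF libraries. The additive and class by time fits have 4 residual degrees of freedom each, with biological coefficients of variation of 20.7% and 21.7%. Poisson and binomial intervals are exact, at 95%.

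Each line has a library at both times, which pairs the libraries across times. Between the 2 libraries of a line, deviations from the time means correlated at -0.0183 in OE78, 0.329 in OE79, 0.0768 in CR78, 0.353 in CR79 and 0.318 in WT.

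The members and lists were chosen with earlier results of these data known. The text names the 4 members, per list up to 4 genes with the smallest adjusted p for time (where none passed, at most 2 abundant ones), and the most alike gene of each member. HSP101 is named as the marker of a library that stands apart, a choice made after its values were seen. MADS29 is named to show where a marker differs from its summed list, likewise after its values were seen. Glutelin genes at 0 at 48 HAF have no fold change given. List names were checked against the position of the RefSeq gene of that name: of 47 name and locus pairs 30 passed, 14 names were missing, 2 were contradicted and dropped and 1 identifier was absent. Genes whose name did not pass go by their identifier, apart from VPE2, VPE3, VPE4, MADS78 and MADS79, whose names are those in use for these identifiers here and were not found in that table.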

Additional observations from a re-analysis of the deposited data

How the results depend on the processing

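The log2 fold changes of the 4 genes in 9 comparisons were refitted in 520 combinations of gene, comparison and setting: 474 kept direction and side of the threshold, 10 lost a call, 6 gained one and 30 changed sign. No sign change touched VPE1, VPE2 or VPE4 for time. The number of VPE genes called for time was 2 to 3 when 1 library was left out, 2 with no replicate block and 0 without both the CR78 and OE78 libraries of 48 HAF, in a test with fewer libraries. Calls for time over all genes also fell, from 7114 to between 4388 and 5835 when 1 library was left out. They were 6255 with no replicate block and 2388 without both libraries. For the change over time in overexpression against CRISPR lines the number of VPE genes called was 0, and 1 with DESeq2, with no filter and with the replicate block, whose fit has 2 residual degrees of freedom. For the classes at 72 HAF it was 1 with DESeq2 and 1 with no filter, and at 48 HAF 1 with no filter. The replicate block changed no other call of a VPE gene, and the cause of these differences was not tested.

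Leaving out 1 library gave ranges that cross 0 for uncalled values. For VPE1 these were -0.322 to 0.111 (OE79 against WT) and -0.333 to 0.523 (classes at 48 HAF). For VPE2 they were -0.231 to 0.173 (change over time between classes), -0.202 to 0.0292 (CR79 against WT), -0.0164 to 0.0166 (OE78 against WT) and -0.306 to 0.118 (classes at 72 HAF). For VPE3 they were -0.0663 to 0.0716 (time), -0.349 to 0.0483 (CR79 against WT), -0.108 to 0.0274 (OE78 against WT), -0.198 to 0.0382 (classes at 48 HAF) and -0.0173 to 0.179 (classes, both times). For VPE4 they were -1.41 to 0.0948 (OE78 against WT) and -0.4 to 0.35 (classes, both times). Without both the CR78 and OE78 libraries of 48 HAF, VPE2 and VPE4 in OE78 against WT were 0.0329 and 0.0528, and VPE4 between classes over both times was 0.441; with no filter the last was 0.00752. Over all genes, the change over time between classes gave 3 calls, against 542 with DESeq2, 1003 with no filter and 1018 with the replicate block. Each VPE gene had 232 reads or more in every library, and values within a time have no replicate.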

Other observations

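The identifiers next to each VPE gene were read because the strand setting of the counts is not known. Beside VPE4, LOC_Os05g51560 averaged 110 CPM with a log2 fold change for time of -0.04 (edgeR adjusted p = 0.747), and LOC_Os05g51580 had at most 3 reads in a library. Beside VPE2, LOC_Os01g37920 averaged 115 CPM with 0.18 (edgeR adjusted p = 0.388), and LOC_Os01g37900 had at most 10 reads. Beside VPE1, LOC_Os04g45480 averaged 7.64 CPM with 0.87 (edgeR adjusted p = 0.0956), and LOC_Os04g45460 had at most 22 reads. Beside VPE3, LOC_Os02g43020 averaged 184 CPM with 0.18 (edgeR adjusted p = 0.312), and LOC_Os02g43000 had at most 10 reads. None of these immediate neighbours that was tested passed the test for time, while the second identifier after VPE1, VPE3 and VPE4 did. LOC_Os04g45490 after VPE1 rose by 0.44 on the log2 scale (edgeR adjusted p = 0.00568) and LOC_Os05g51590 after VPE4 by 0.50 (edgeR adjusted p = 0.00331). LOC_Os02g43030 after VPE3 rose with edgeR adjusted p = 0.00215, with at most 112 reads in a library and a mean of 1.66 CPM.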
